A study of Mus musculus with 12 samples.

Results

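The genes described here are the ligands and receptors that draw macrophages and monocytes into tissue and keep them alive there, in the sciatic dorsal root ganglia (DRG) of mice after enriched environment (EE), sciatic nerve axotomy (SNA) or both. They are the 10 genes Csf1, Il34 and Csf1r, Ccl2, Ccl7 and Ccr2, Cx3cl1 and Cx3cr1, and Cxcl12 and Cxcr4, chosen by name as a functional set. They are 10 of the 44345 gene names of the count table. All 10 passed the filter on low counts that left 16238 genes for testing. RNA of whole L4-L6 DRG was sequenced in 12 samples, 3 in each of 4 groups of C57BL/6 mice aged 5 to 8 weeks, and each sample pooled the ganglia of 2 mice. SH Sham mice lived in standard housing (SH) for 10 days and then had the sciatic nerve exposed but not cut, SH SNA mice had the nerve completely transected after the same housing, and EE Sham and EE + SNA mice had these operations after 10 days in EE. Ganglia were taken 24 h after surgery. The study's text describes EE Sham as an earlier dataset, while the labels list it beside the other groups and name no batch, so that if it was a batch of its own, that batch cannot be told apart from EE in EE Sham against SH Sham or from SNA in EE + SNA against EE Sham, and it enters the interaction and the effects over all samples. P-values measure the spread between these pooled samples only.

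CSF1 and IL-34 are both ligands of CSF1R, the receptor on which macrophages and microglia depend for survival and division. CCL2 and CCL7 attract CCR2-bearing monocytes out of the blood, CX3CL1 is a membrane-bound chemokine read by CX3CR1 on monocytes, macrophages and microglia, and CXCL12 retains or attracts CXCR4-bearing leukocytes and progenitors. After injury to a peripheral nerve, sensory neurons are known to make CSF1, and macrophages gather in the ganglion. RNA of whole ganglia mixes neurons, glia, vessels and leukocytes, so that more cells of a type and more RNA per cell cannot be told apart.

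The counted reads ranged from 11343579 to 22871460 per sample. Atf3, a transcription factor of injured neurons used here to check the surgery labels, had 110 to 138 CPM in SH Sham, 136 to 168 in EE Sham, 499 to 549 in SH SNA and 454 to 516 in EE + SNA, and every SNA sample was above every sham sample. CPM are read counts scaled to the library size after TMM normalization. The 14 sensory neuron markers summed to a mean of 22327 CPM in SH Sham, 20734 in EE Sham, 20083 in SH SNA and 19714 in EE + SNA. One library stood apart: in EE + SNA replicate 3 the 8 neutrophil markers summed to 786 CPM, against 166 and 190 CPM in the other EE + SNA samples and at most 342 CPM in any other sample. It was the highest sample of its group for 7 of the 10 genes. Results of the 10 genes that rest on it are given with and without it, as are those of the lists fitted without it.

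Csf1 lies on chromosome 3 (GRCm38, 107741048-107760469, minus strand) and Cxcl12 on chromosome 6 (117168535-117181367, plus strand). They are the ligands of the set whose RNA passed the test in at least 1 comparison of pairs of groups, and their promoters, the 250 bases before the start of transcription in RefSeq's annotation of GRCm38.p6, are printed 5′ to 3′ on the strand of the gene. Promoters were found for 6 of the 10 genes (Csf1, Ccr2, Cx3cl1, Cx3cr1, Cxcl12 and Cxcr4). Capitals mark a match to a motif searched on both strands, which were AP-1 (TGANTCA), the cyclic AMP response element (TGACGTCA), STAT (TTCNNNGAA), NF-kB (by its consensus) and the TATA box (TATAAA).
Csf1 chr3:107760470-107760719: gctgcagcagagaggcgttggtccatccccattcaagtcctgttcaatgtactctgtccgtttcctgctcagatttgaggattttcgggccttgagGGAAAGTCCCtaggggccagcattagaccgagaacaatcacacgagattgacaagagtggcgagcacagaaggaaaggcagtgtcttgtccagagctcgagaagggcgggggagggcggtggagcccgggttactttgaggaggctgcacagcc
Cxcl12 chr6:117168285-117168534: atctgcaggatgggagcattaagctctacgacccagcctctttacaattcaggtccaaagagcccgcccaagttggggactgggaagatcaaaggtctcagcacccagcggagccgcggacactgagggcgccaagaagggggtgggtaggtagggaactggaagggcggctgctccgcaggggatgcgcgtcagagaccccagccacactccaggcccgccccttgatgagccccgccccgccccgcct
The Csf1 window held 1 NF-kB match, 154 bases before the start, and no match to the other motifs. The Cxcl12 window held none. Over 32851 promoters of the same length, 5% held an NF-kB match, 6.75% AP-1, 1.55% the cyclic AMP response element, 7.02% STAT and 12.4% a TATA box. A match of letters is a description of the window and not a site of binding.

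Per length, Il34 was the most abundant of the 10 genes in every group. In SH Sham, levels in FPKM, the fragments per kilobase of gene scaled to library size, fell in the order Il34 (14.6 ± 1.73, SD, n = 3), Cxcr4 (7.08 ± 0.744), Csf1 (5.91 ± 0.476), Cxcl12 (5.44 ± 0.530), Ccl2 (4.72 ± 0.852), Csf1r (3.84 ± 0.420), Ccl7 (1.76 ± 0.261), Cx3cl1 (1.30 ± 0.141), Ccr2 (0.864 ± 0.0838) and Cx3cr1 (0.696 ± 0.0792). The neighbours from Cxcr4 to Csf1r overlapped in their samples, whereas Il34 stood above the rest and the steps from Csf1r downwards did not overlap. Csf1 moved from rank 3 in SH Sham and rank 4 in EE Sham to rank 2 in both SNA groups, where its FPKM overlapped those of Il34. In EE + SNA, Ccr2 (1.59 ± 0.586) and Cx3cr1 (1.19 ± 0.126) stood at ranks 8 and 9 above Cx3cl1 (1.16 ± 0.216), but these neighbours overlapped.

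**Figure D1:**
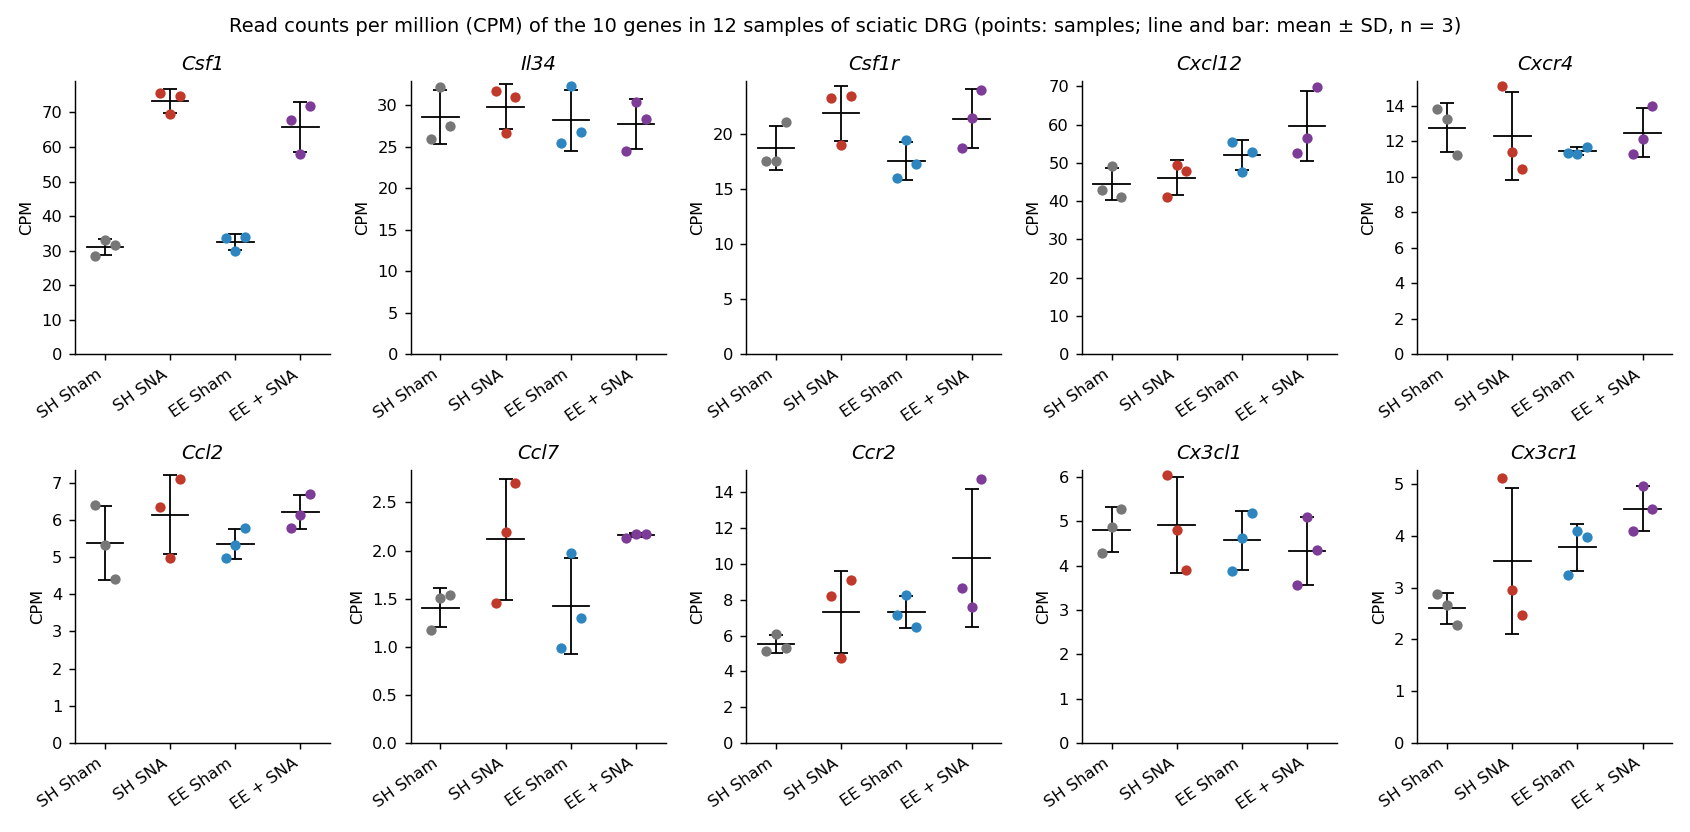
CPM (y axes, each from 0) of the 10 genes in the 4 groups (x axes), with 1 point per sample in the order of replicates 1 to 3 and the mean ± SD over 3 samples as a line and bar. Every SNA sample of Csf1 (57.9 to 75.7 CPM) lies above every sham sample (28.5 to 34.0 CPM), while the groups of Il34 and Cxcr4 overlap.

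Of the 10 genes, Csf1 was the one with a call in each comparison of SNA with sham. In SH SNA against SH Sham it was the only gene of the 10 to pass an adjusted P of 0.05 or the unadjusted P of 0.05 that the study used, where 11.2% and 25.2% of all genes tested passed, so that 1 of 10 was no more than the share of all genes. In EE + SNA against SH Sham, 4 of the 10 passed the adjusted threshold (Csf1, Ccr2, Cx3cr1 and Cxcl12) and 5 the unadjusted one (with Ccl7), against 12.5% and 27.2% of all genes. These were again 4 and 5 without EE + SNA replicate 3. After adjustment, Csf1 alone passed without SH Sham replicate 3, and Csf1 and Cx3cr1 passed without SH Sham replicate 1. In EE + SNA against EE Sham, Csf1 passed after adjustment and Csf1 and Csf1r before it, against 4.83% and 20.6%. There Csf1r gave 0.20 without EE + SNA replicate 3 and no longer passed the unadjusted threshold. Every gene of the 10 called was higher in the first group named. These comparisons share control or treated samples, so that their counts are not independent of each other.

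Over both housings, in a fit of all 12 samples, SNA against sham called 3 of the 10 genes after adjustment (Csf1, Csf1r and Ccl7) and 5 before it (with Ccr2 and Cx3cr1), and all were higher after SNA. Each of the last 2 rested on 1 library: Ccr2 gave 0.29 without EE + SNA replicate 3 (P = 0.0554, n = 11), and Cx3cr1 gave 0.35 with all samples and 0.18 without SH SNA replicate 1 (P = 0.174, n = 11). The shares of all genes were 22.4% and 34.7%, so that the counts of the 10 genes were near them. The median log2 fold change of the 10 genes was 0.23, and 9 of the 10 were above 0. The median of all genes was 0.0071, and 8374 of the 16238 were above 0. Among the 9, Il34 (0.024) and Cxcr4 (0.034) were near 0. In 12 fits that each left out 1 sample, 1 to 3 of the 10 genes were called, and Csf1 was called in each.

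**Figure D2:**
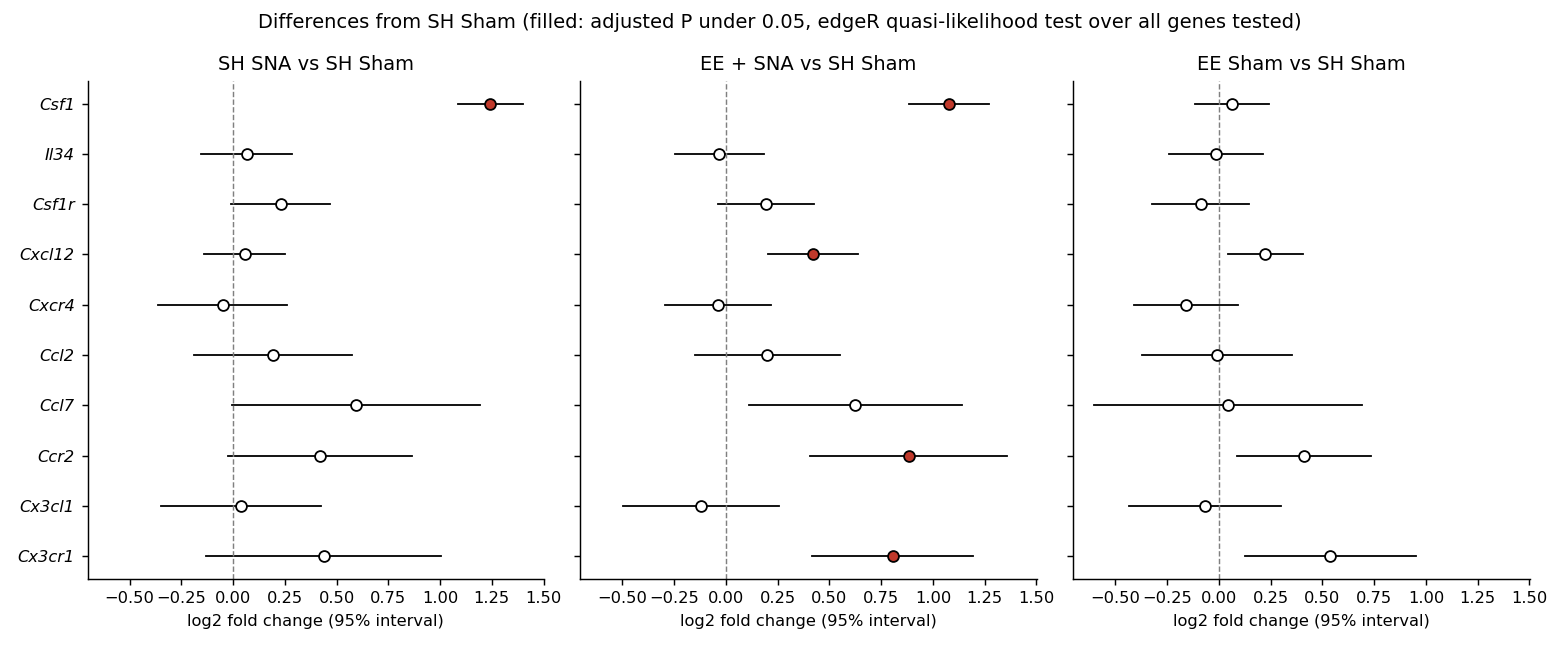
Log2 fold changes (x axes) of the 10 genes (y axis) against SH Sham in SH SNA, EE + SNA and EE Sham, with 95% intervals as lines and filled points where the adjusted P was under 0.05. Csf1 is filled at 1.24 and 1.08 after SNA and open at 0.065 in EE Sham, while Ccr2, Cx3cr1 and Cxcl12 are filled in the EE + SNA panel, and EE + SNA against SH SNA called none of the 3 after adjustment, with Cxcl12 past the unadjusted threshold.

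Csf1, which encodes the secreted growth factor of macrophages and microglia, rose by a factor of about 2 after SNA in both housings. Its CPM were 28.5, 33.1 and 31.6 in SH Sham and 75.7, 69.5 and 74.8 in SH SNA. They were 33.6, 29.98 and 34.0 in EE Sham and 67.9, 57.9 and 71.8 in EE + SNA. No SNA sample overlapped a sham sample in either housing. The log2 fold change was 1.24 in SH SNA against SH Sham (SE 0.073, fold 2.37, 95% interval 2.12 to 2.64, adjusted P = 1.19e-06), and 8 of the 16238 genes had a smaller P. It was 1.08 in EE + SNA against SH Sham (SE 0.089, fold 2.11, adjusted P = 1.58e-05) and 1.01 in EE + SNA against EE Sham (SE 0.090, fold 2.01, adjusted P = 0.000152). The call held under every alternative setting and with every sample left out.

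No adjusted test separated Csf1 in EE + SNA from SH SNA, and its mean was lower in EE + SNA. EE + SNA against SH SNA gave a log2 difference of −0.16 (95% interval −0.34 to 0.016, adjusted P = 0.989), EE Sham against SH Sham gave 0.065 (−0.11 to 0.24), and the interaction of housing and SNA gave −0.23 (−0.48 to 0.027). In fold, the first interval runs from 0.791 to 1.01 times the level of SH SNA. The difference from SH SNA without EE + SNA replicate 3 was −0.23 and the interaction −0.30 (P = 0.0222, adjusted P = 0.9999, n = 11), both past the unadjusted threshold only. The difference of −0.16 was also past it in a fit with the replicate number as a block.

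Il34, which encodes the other ligand of CSF1R, passed no test in any comparison. Its CPM were 26.0, 32.2 and 27.5 in SH Sham, 31.7, 26.7 and 31.0 in SH SNA, 25.4, 32.3 and 26.7 in EE Sham, and 24.5, 30.3 and 28.4 in EE + SNA. All 4 groups overlapped. The SNA effect over both housings was 0.024 on the log2 scale (95% interval −0.14 to 0.19, adjusted P = 0.864), and 97 of its 1959 exon bases are shared with Gm15894 and Gm15895 on the other strand, whose reads cannot be told apart without the strand. The ratio of the FPKM of Csf1 over Il34 was 0.406 ± 0.0227 (SD, n = 3) in SH Sham and 0.919 ± 0.0434 in SH SNA, and 0.436 ± 0.0795 in EE Sham and 0.895 ± 0.166 in EE + SNA. In each housing the sham and SNA ratios did not overlap.

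Csf1r, the receptor of both ligands and a defining gene of macrophages, rose slightly with SNA. Its CPM were 17.5, 17.6 and 21.1 in SH Sham, 23.2, 19.01 and 23.4 in SH SNA, 16.0, 19.4 and 17.3 in EE Sham, and 18.7, 21.5 and 24.0 in EE + SNA. SNA and sham samples overlapped in both housings. Over both housings the SNA effect was 0.25 on the log2 scale (SE 0.081, fold 1.19, adjusted P = 0.0312), whereas no single comparison passed after adjustment (0.23, adjusted P = 0.217, in SH SNA against SH Sham and 0.28, adjusted P = 0.196, in EE + SNA against EE Sham). The adjusted P of the SNA effect was 0.0522 to 0.0776 without any 1 of SH Sham replicate 1 or 2, SH SNA replicate 1 or 3, EE Sham replicate 1 or 3 and EE + SNA replicate 2 or 3, and was under 0.05 without any of the other 4 samples. Of the 5774 exon bases of Csf1r, 873 are shared with Hmgxb3 on the other strand. The Csf1 over Csf1r ratio in FPKM was 1.55 ± 0.180 in SH Sham, 3.13 ± 0.230 in SH SNA, 1.74 ± 0.270 in EE Sham and 2.88 ± 0.444 in EE + SNA.

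**Figure D3:**
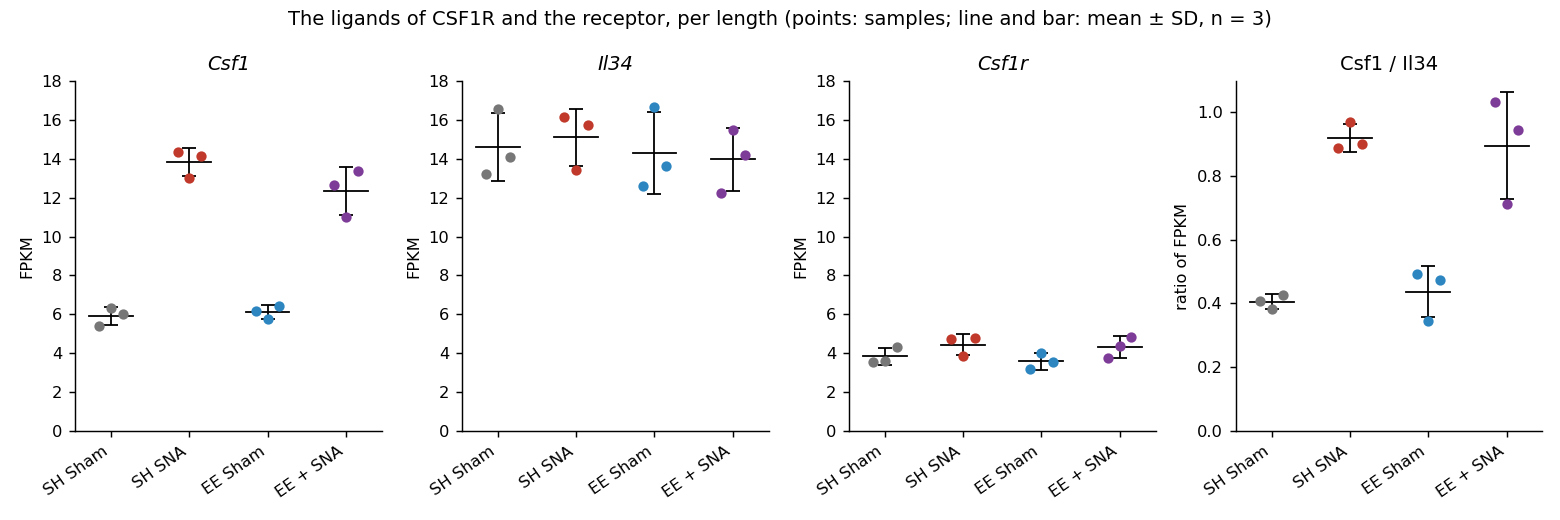
FPKM of Csf1, Il34 and Csf1r (y axes on one scale) and the ratio of the FPKM of Csf1 over Il34 in each sample of the 4 groups (x axes), with the mean ± SD over 3 samples as a line and bar. Csf1 lies near 6 FPKM in both sham groups and at 10.99 to 14.3 FPKM in both SNA groups, while the 4 groups of Il34 overlap between 12.2 and 16.7 FPKM.

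Ccl2 and Ccl7, chemokines of monocytes encoded 8258 bases apart on chromosome 11, were low in all groups, and Ccl7 alone passed a test. The CPM of Ccl2 were 6.39, 5.31 and 4.41 in SH Sham, 6.35, 4.99 and 7.08 in SH SNA, 4.96, 5.31 and 5.77 in EE Sham, and 5.78, 6.14 and 6.69 in EE + SNA. In EE housing every SNA sample of Ccl2 was above every sham sample, though the nearest of them were 5.78 and 5.77 CPM, and in SH the groups overlapped. The SNA effect of Ccl2 over both housings was 0.20 on the log2 scale (95% interval −0.032 to 0.43, adjusted P = 0.211), so that a rise of over 1.35-fold lies outside the interval. Ccl7 was counted 11 to 50 times per sample, with counts of 20, 21 and 23 in SH Sham, 19, 26 and 34 in SH SNA, 11, 26 and 16 in EE Sham, and 24, 50 and 27 in EE + SNA. In CPM, SH SNA overlapped SH Sham and every EE + SNA sample (2.14 to 2.18 CPM) was above every SH Sham and EE Sham sample (at most 1.97 CPM).

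The SNA effect of Ccl7 over both housings was 0.59 on the log2 scale (SE 0.19, fold 1.504, adjusted P = 0.0351). Its adjusted P was 0.0598 with DESeq2, and 0.0529 to 0.0945 without any 1 of SH Sham replicate 1, SH SNA replicate 2 or 3, EE Sham replicate 1 or 3 and the 3 EE + SNA samples. Against SH Sham alone the values were 0.59 (adjusted P = 0.202) in SH SNA and 0.63 (adjusted P = 0.107) in EE + SNA. Genes of the CC chemokine cluster resemble one another, and reads that aligned to more than 1 place were left out of the counts, so that values of its members are uncertain to that extent.

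Ccr2, the receptor of CCL2 and CCL7 and a marker of recruited monocytes, was highest in EE + SNA. Its CPM were 5.16, 6.10 and 5.28 in SH Sham, 8.18, 4.73 and 9.07 in SH SNA, 7.13, 8.27 and 6.50 in EE Sham, and 8.63, 7.61 and 14.7 in EE + SNA. Every EE + SNA and every EE Sham sample was above every SH Sham sample, whereas SH SNA spread across both. Against SH Sham, Ccr2 rose in EE + SNA by 0.88 on the log2 scale (SE 0.22, fold 1.84, adjusted P = 0.0208). Without EE + SNA replicate 3, which held 14.7 CPM of Ccr2, the value fell to 0.54 and still passed (adjusted P = 0.0379). Without SH Sham replicate 1 or 3 the adjusted P was 0.0888 and 0.0654.

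SH SNA against SH Sham gave 0.42 for Ccr2 (adjusted P = 0.225), or 0.65 (adjusted P = 0.0184) without SH SNA replicate 2, its lowest sample. EE Sham against SH Sham gave 0.41 (95% interval 0.086 to 0.73, adjusted P = 0.9999). EE + SNA against SH SNA gave 0.47 (95% interval −0.12 to 1.06), which fell to 0.13 without EE + SNA replicate 3. Over both housings the SNA effect of 0.45 missed the threshold (adjusted P = 0.0596), but passed with the likelihood ratio test (adjusted P = 0.0441), with DESeq2 (0.0373) and with no filter (0.00101), and without SH SNA replicate 2 (0.0150) or EE + SNA replicate 2 (0.0233). These were 3 of the 6 alternative settings and 2 of the 12 fits without 1 sample. In the rest it missed, with adjusted P of up to 0.0678 and 0.167. The SNA effect was 0.29 without EE + SNA replicate 3 and no longer passed the unadjusted threshold (P = 0.0554, adjusted P = 0.167, n = 11).

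Cx3cl1, the membrane-bound ligand, did not pass a test in any comparison, and its receptor Cx3cr1 was higher in EE + SNA than in SH Sham. The CPM of Cx3cl1 ranged from 4.28 to 5.28 in SH Sham, 3.90 to 6.04 in SH SNA, 3.88 to 5.20 in EE Sham and 3.56 to 5.09 in EE + SNA, and all groups overlapped. Its SNA effect over both housings was −0.0077 on the log2 scale (95% interval −0.28 to 0.26). The CPM of Cx3cr1 were 2.87, 2.65 and 2.27 in SH Sham, 5.12, 2.96 and 2.47 in SH SNA, 3.25, 4.10 and 3.98 in EE Sham, and 4.09, 4.96 and 4.51 in EE + SNA. Both EE groups lay wholly above SH Sham, while in SH SNA replicate 1 alone was near the EE + SNA samples.

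Cx3cr1 rose by 0.80 on the log2 scale in EE + SNA against SH Sham (SE 0.18, fold 1.75, adjusted P = 0.0123), and by 0.81 without EE + SNA replicate 3 (adjusted P = 0.0176). Without SH Sham replicate 3 the adjusted P was 0.0555. EE Sham against SH Sham gave 0.54 (95% interval 0.13 to 0.95, adjusted P = 0.9999) and SH SNA against SH Sham 0.44 (95% interval −0.13 to 1.01, adjusted P = 0.329), or 0.057 without SH SNA replicate 1. Of the 4505 exon bases of Cx3cr1, 78 are shared with Gm33858 on the other strand.

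Cxcl12, the most strongly counted chemokine of the set, rose in EE + SNA against SH Sham, and its receptor Cxcr4 did not pass a test in any comparison. The CPM of Cxcl12 were 43.0, 49.1 and 41.2 in SH Sham, 41.1, 49.5 and 47.8 in SH SNA, 55.4, 47.7 and 52.8 in EE Sham, and 52.7, 56.3 and 69.9 in EE + SNA. Every EE + SNA sample was above every SH sample, and EE Sham overlapped SH Sham through its replicate 2. Cxcl12 rose by 0.42 on the log2 scale in EE + SNA against SH Sham (SE 0.10, fold 1.34, adjusted P = 0.0166), and by 0.30 without EE + SNA replicate 3 (adjusted P = 0.0372). Without SH Sham replicate 1 or 3 the adjusted P was 0.0741 and 0.0652. SH SNA against SH Sham gave 0.056 (95% interval −0.14 to 0.25), so that SNA alone moved it by less than the spread between samples.

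The CPM of Cxcr4 ranged from 11.2 to 13.8 in SH Sham, 10.4 to 15.1 in SH SNA, 11.3 to 11.7 in EE Sham and 11.3 to 14.0 in EE + SNA, and all groups overlapped. Its SNA effect over both housings was 0.034 on the log2 scale (95% interval −0.16 to 0.23). In FPKM, Cxcl12 over Cxcr4 was 0.772 ± 0.0740 in SH Sham, 0.858 ± 0.225 in SH SNA, 1.003 ± 0.0729 in EE Sham and 1.05 ± 0.0423 in EE + SNA, and the ratios of both EE groups lay wholly above those of SH Sham.

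EE by itself moved none of the 10 genes past the adjusted threshold. In EE Sham against SH Sham, 0 of the 10 passed after adjustment by edgeR, as by DESeq2, and Ccr2, Cx3cr1 and Cxcl12 passed the unadjusted threshold, all higher in EE Sham. The shares of all genes were 0.00616% and 2.97%. In EE + SNA against SH SNA, 0 of the 10 passed after adjustment by edgeR, as by DESeq2, and Cxcl12 passed before it, at 0.37 (SE 0.11, 95% interval 0.14 to 0.60, adjusted P = 0.989), against 0% and 4.10% of all genes. That comparison holds no EE Sham sample, and all 3 EE + SNA samples of Cxcl12 were above all 3 SH SNA samples. Without EE + SNA replicate 3 the value was 0.24, which still passed the unadjusted threshold.

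Over both surgeries, in a test added after these values were seen, EE against SH called 0 of the 10 after adjustment by edgeR or DESeq2 and 3 before it: Cxcl12 by 0.30 on the log2 scale (SE 0.072, P = 0.000701, adjusted P = 0.650, n = 12), Cx3cr1 by 0.45 (SE 0.16, P = 0.0109) and Ccr2 by 0.44 (SE 0.17, P = 0.0160). With no filter on low counts, 2 of the 10 passed after adjustment (Ccr2 and Cxcl12). The shares of all genes were 0% and 4.69%, and Cxcl12 had the P of rank 16 among the 16238 genes. Without EE + SNA replicate 3, Ccr2 gave 0.28 and no longer passed the unadjusted threshold (P = 0.0629, n = 11), while Cx3cr1 gave 0.46 and Cxcl12 0.23 and passed it. The interaction of housing and SNA called 0 of the 10 at either threshold, against 0% and 2.61% of all genes, and DESeq2 likewise called 0 after adjustment. An SNA effect that differed between housings was therefore not shown for any of the 10 genes, and the intervals of the interaction were wide for Ccr2 (−0.67 to 0.78), Cx3cr1 (−0.85 to 0.51) and Ccl7 (−0.83 to 0.82).

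Among the other chemokine genes, several ligands and a receptor of monocytes and macrophages rose after SNA. Of 30 other chemokine ligands, 14 passed the filter, and 4 rose and 0 fell after adjustment in each of SH SNA and EE + SNA against SH Sham, with medians of 0.34 and 0.55 on the log2 scale where the medians of all genes were 0.0047 in both. The shares of all genes that passed after adjustment were 11.2% and 12.5%. Ccl9, a ligand of CCR1, had 3.59 ± 0.682 CPM (SD, n = 3) in SH Sham, 8.99 ± 1.65 in SH SNA, 4.80 ± 1.65 in EE Sham and 7.77 ± 1.69 in EE + SNA. Ccl9 rose by 1.34 in SH SNA and 1.10 in EE + SNA, and Ccl6 by 1.17 and 1.14. Ccl12, a further ligand of CCR2, rose by 1.13 in SH SNA (adjusted P = 0.0310) and 1.07 in EE + SNA (adjusted P = 0.0432), at 0.935 ± 0.359 CPM in SH Sham and 2.06 ± 0.356 CPM in SH SNA. Ccl11, an attractant of eosinophils, rose by 0.53 in EE + SNA and had 0.33 (adjusted P = 0.154) in SH SNA. The remaining call, Ppbp of platelets in SH SNA (1.20, adjusted P = 0.0467), was named after its values were seen. Mean CPM of Ppbp were 0.918 in SH Sham, 2.08 in SH SNA, 3.83 in EE Sham and 2.56 in EE + SNA. The highest mean was thus in EE Sham, without SNA, where samples ranged from 1.30 to 5.31 CPM and overlapped both SNA groups. Its call against SH Sham therefore does not set SNA apart from EE Sham. Without EE + SNA replicate 3, 2 ligands rose in EE + SNA (Ccl6 and Ccl9), while for the SNA effect over both housings the same 4 (Ccl6, Ccl9, Ccl11 and Ccl12) rose with and without it. Over both housings 22.4% of all genes passed, so that 4 of 14 was near the share of all genes.

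Of 19 other chemokine receptors, 7 passed the filter and 1 rose in both comparisons: Ccr1 (1.09 and 1.17), carried by monocytes and macrophages. The shares of all genes were 11.2% and 12.5%, and 22.4% over both housings, so that 1 of 7 was near or below them. In CPM, Ccr1 had 1.56 ± 0.639 in SH Sham, 3.29 ± 0.222 in SH SNA, 2.42 ± 0.263 in EE Sham and 3.55 ± 1.20 in EE + SNA. The receptors that passed the filter had medians of 0.29 and 0.15. Without EE + SNA replicate 3, Ccr1 did not pass in EE + SNA, and it rose over both housings with and without that library. Against EE Sham, 0 of these ligands and 0 of these receptors passed after adjustment in EE + SNA by edgeR, and 5 ligands higher, 1 ligand lower and 0 receptors passed at an unadjusted P of 0.05. Of all genes, 4.83% passed after adjustment and 20.6% before it.

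**Figure D4:**
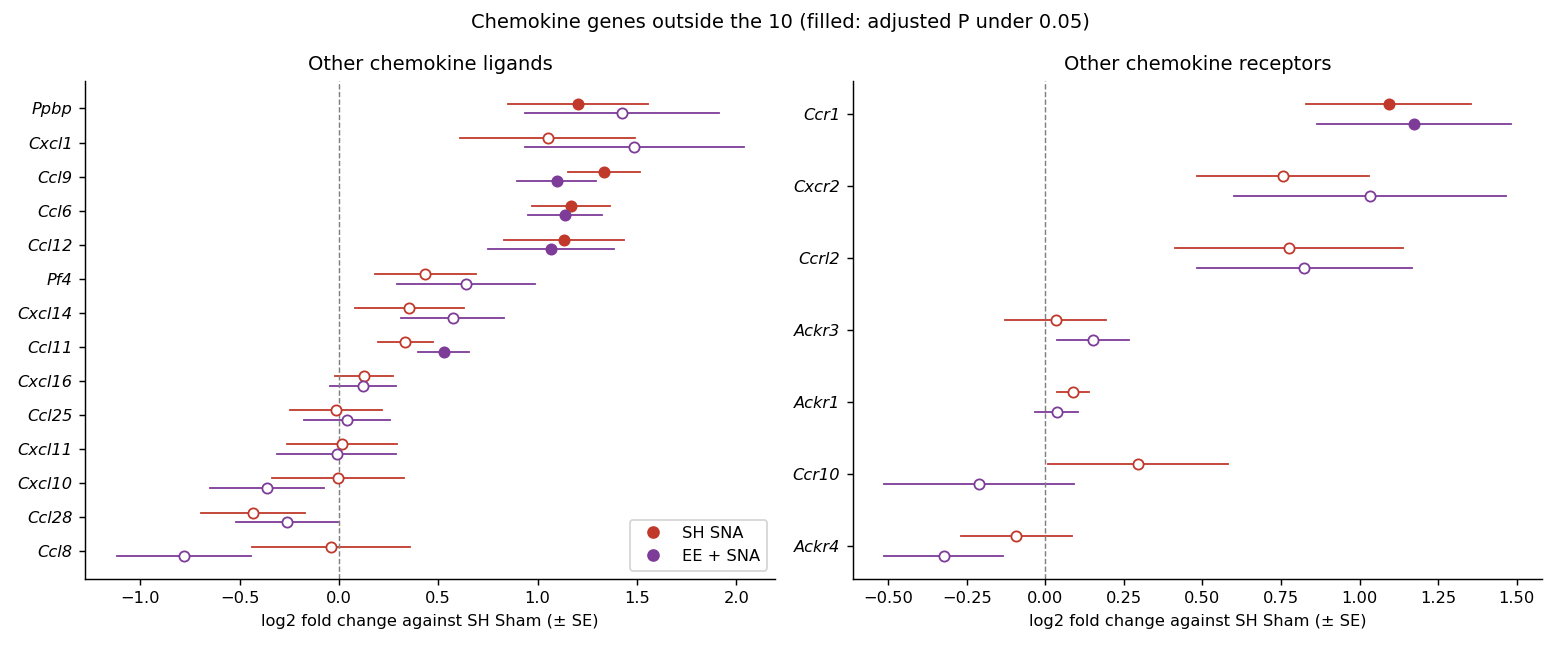
Log2 fold changes against SH Sham (x axes, lines ± SE) of the other chemokine ligands and receptors that passed the filter (y axes) in SH SNA and EE + SNA, with filled points where the adjusted P was under 0.05. Ccl9, Ccl6, Ccl12 and Ccr1 are filled in both, between 1.07 and 1.34.

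Further genes of myeloid growth factors and of the CSF1R lineage were listed. Of 12 other colony stimulating factors and receptors, 9 passed the filter and 0 passed the adjusted threshold in SH SNA or EE + SNA against SH Sham by edgeR, with 3 higher and 1 lower and 1 higher and 0 lower at an unadjusted P of 0.05. The unadjusted shares of all genes were 25.2% and 27.2%. Over both housings, Csf2ra (0.26, adjusted P = 0.0344) and Csf2rb (0.49, adjusted P = 0.0443), chains of the GM-CSF receptor named after their values were seen, rose with SNA, but neither passed without EE + SNA replicate 3. With 22.4% of all genes called in that fit, 2 of 9 was no more than the share of all genes. Csf2rb has the close copy Csf2rb2. Of 10 genes of the CSF1R lineage and its adaptors, 9 passed the filter. In SH SNA against SH Sham 0 rose and 0 fell after adjustment by edgeR, and 3 were higher at an unadjusted P of 0.05. In EE + SNA, Tyrobp, a signalling adaptor of myeloid cells, rose by 0.83 (adjusted P = 0.0283) and Irf8, a transcription factor of monocytes, by 0.76 (adjusted P = 0.0434), but neither passed without EE + SNA replicate 3. Over both housings, Tyrobp (0.68), Trem2 (0.63) and Inpp5d (0.58) rose with SNA, with and without that library. The last 2, a receptor that signals through TYROBP and a lipid phosphatase, were named after their values were seen. For these 9 genes too, the adjusted shares of all genes were 12.5% in EE + SNA against SH Sham and 22.4% over both housings.

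Markers of several cell types, not of leukocytes alone, rose in EE + SNA against SH Sham and with SNA over both housings. The 15 macrophage markers, all of which passed the filter and none of which was at 0 counts throughout, summed to 163 to 184 CPM in SH Sham, 189 to 261 in SH SNA, 154 to 197 in EE Sham and 206 to 337 in EE + SNA. Of the 15, 5 rose in SH SNA and 4 in EE + SNA against SH Sham after adjustment and none fell, where 11.2% and 12.5% of all genes passed, and without EE + SNA replicate 3 only 1 of the 15 rose in EE + SNA. Over both housings, 9 rose with SNA, or 6 without that library, against 22.4% of all genes. In EE Sham against SH Sham, where Ccr2 and Cx3cr1 passed the unadjusted threshold, 0 macrophage markers passed either threshold by edgeR, and 7 were above 0 and 8 below. In that comparison all 7 monocyte markers (median 0.41 on the log2 scale) and all 8 neutrophil markers (median 0.41) were above 0. So were all 3 red blood cell genes matched (median 0.51) and 3 of the 4 lymphocyte markers that passed the filter (median 0.37). All 6 Schwann cell markers were below 0 (median −0.024), and 8333 of the 16238 genes tested were above 0. The unadjusted threshold was passed by 1 monocyte, 1 red blood cell, 1 lymphocyte and 0 neutrophil markers, against 2.97% of all genes. The adjusted one was passed by 0 markers of these lists. The 7 monocyte markers summed to 52.8 to 89.6 CPM in SH Sham, 68.4 to 143 in SH SNA, 71.3 to 106 in EE Sham and 89.0 to 199 in EE + SNA, and 1 rose in SH SNA and 2 in EE + SNA, or 1 without EE + SNA replicate 3. Over both housings, 1 of the 7 rose. The shares of all genes were again 11.2%, 12.5% and 22.4% in the same order, so that 1 of 7 was near or below them. The 3 red blood cell genes matched summed to 114 to 184, 190 to 515, 111 to 307 and 175 to 595 CPM in the same order of groups. After adjustment, 2 of the 3 rose in SH SNA and 3 in EE + SNA against SH Sham, and 1 rose over both housings, against the same shares of all genes. EE + SNA replicate 3 held the highest sum of the macrophage, monocyte, red blood cell and neutrophil lists, and the red blood cell list was not fitted without it. Of the 6 Schwann cell markers, 3 rose in EE + SNA against SH Sham and all 6 rose with SNA over both housings, by 0.20 to 0.38 on the log2 scale, and they summed to a mean of 8062 CPM in SH Sham, 9607 in SH SNA, 7770 in EE Sham and 10396 in EE + SNA. Of the 6 fibroblast markers, 2 rose in EE + SNA against SH Sham and 2 over both housings, which were Dcn and Pdgfra each time (0.46 and 0.43 in EE + SNA). Of the 6 endothelial markers, Cdh5 rose in EE + SNA against SH Sham (0.36) and over both housings (0.22), and against SH SNA all 6 were above 0, with 2 past the unadjusted threshold. The shares of all genes were 12.5% in EE + SNA against SH Sham, 22.4% over both housings and, unadjusted, 4.10% against SH SNA. A call of 1 of 6 was near the adjusted shares. In SH SNA against SH Sham, 0 of the Schwann cell, fibroblast and endothelial markers passed after adjustment by edgeR, against 11.2% of all genes. At an unadjusted P of 0.05, 3 Schwann cell, 1 fibroblast and 0 endothelial markers were higher and 0 lower, against 25.2% of all genes. EE + SNA replicate 3 also held the highest sum of the Schwann cell (12239 CPM), fibroblast (1035 CPM) and endothelial (108 CPM) lists. These lists were not fitted without it. Of the 14 sensory neuron markers, 3 were lower in SH SNA and 5 in EE + SNA against SH Sham after adjustment, and 7 over both housings. In these comparisons 0 were called higher, and the shares of all genes were 11.2%, 12.5% and 22.4%. The part of all these cell types in the values of Csf1r, Ccl7, Ccr2, Cx3cr1, Cxcl12 and the other chemokine genes was not tested.

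**Figure D5:**
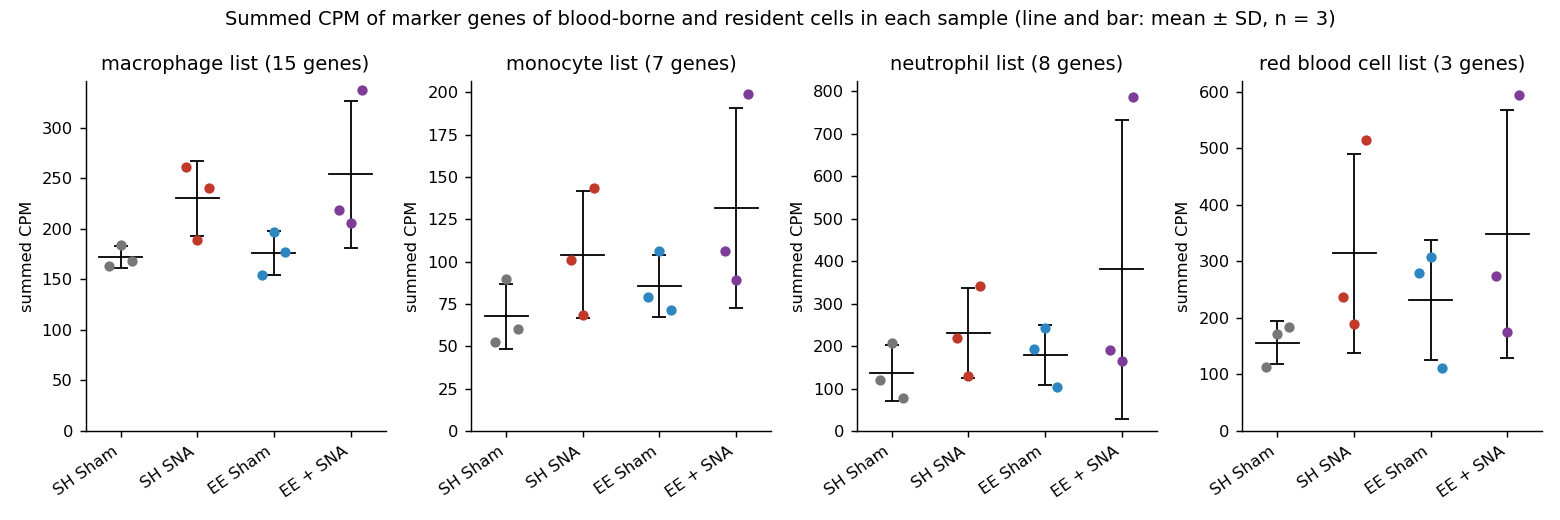
Summed CPM (y axes, from 0) of the macrophage, monocyte, neutrophil and red blood cell marker lists in each sample of the 4 groups (x axes), with the mean ± SD over 3 samples as a line and bar. EE + SNA replicate 3 is the highest sample in all 4 panels, at 337, 199, 786 and 595 CPM.

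The genes nearest to Csf1 over the 12 samples, by the root mean square difference of log2 CPM centred on each gene's mean, were Rnf122 (0.0911), Adcyap1 (0.0912), Serpinb1a (0.0915), Tubb6 (0.1001) and Itpr1 (0.103), where the median gene differed from Csf1 by 0.592. Adcyap1 encodes a neuropeptide, Tubb6 a tubulin and Itpr1 a calcium release channel. Which cells hold the RNA of the genes nearest to Csf1 was not tested. For Ccl2 they were Ugt8a (0.0850), Kdelr3 (0.0911), Cbx2 (0.0930), Secisbp2l (0.0967) and Gldn (0.102), against a median of 0.243. For Csf1r they were Ssna1 (0.0803), Psmg3 (0.0828), Nadk (0.0893), Msrb1 (0.0900) and Sys1 (0.0910), against a median of 0.239. The SD of log2 CPM over the 12 samples was 0.60 for Csf1, 0.20 for Ccl2 and 0.19 for Csf1r. A gene that varies little lies near Ccl2 and Csf1r by this measure, so that nearness to them does not show a shared course.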

How the data were processed

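Libraries were made from total RNA of whole DRG with a TruSeq mRNA kit and sequenced in pairs. Reads were aligned to mm10 by the authors with TopHat2 2.0.12 and assigned to gene names with HTSeq. The values of the deposited count table are raw whole counts. The deposited FPKM table holds FPKM of the same reads, which the authors divided by gene length and library size. The submitters' notes name HTSeq 0.6.0 and the study's methods another version. The strand setting of the counting is not given in the sources used here. Of all reads, 46.7% to 47.6% were left out as in no feature, 8.49% to 9.28% as not unique and 0.314% to 0.370% as ambiguous.

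TMM scaling (factors 0.978 to 1.02) and filterByExpr (10 counts, 15 in total) of edgeR 4.0.16 in R 4.3.3 were applied to the counts. Each pair of groups was fitted on its 6 samples, and the SNA effect, interaction and EE effect on all 12, with the two-sided quasi-likelihood F test and Benjamini-Hochberg adjustment over 16238 genes. FPKM were used for levels and ratios of genes, which are given by group, and not for the tests. Named are the 10 genes, Atf3, at most 4 genes called per list by smallest P over both comparisons of SNA groups with SH Sham, and the 5 genes nearest to Csf1, Ccl2 and Csf1r among genes of at least 1 CPM. Members and lists were chosen with earlier results of these data known, and 1 listed receptor is not reported here. Genes were placed with GENCODE M21 on GRCm38. No replicate pair of a group agreed within counting noise (chi-square per degree of freedom 3.90 to 8.76).

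As alternatives, the study's own likelihood ratio test was run beside DESeq2 1.42.0, library size only, no filter, 10 counts in every sample, 1 fit of all samples, the replicate block and each sample left out, and the EE effect and the lists without 1 library were added after seeing the data. Pairing by replicate number was checked by correlating deviations from group means: same-numbered samples had r of 0.336, 0.128 and 0.134 between EE Sham and SH Sham, where the rule of every r above 0.1 was met, and at least 1 r below 0.1 in each other comparison. Differently numbered samples of EE Sham and SH Sham had r of up to 0.200, so that a pairing of these groups is uncertain. Values are from fits without pairing unless the replicate block is named.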

Additional observations from a re-analysis of the deposited data

How the results depend on the processing

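No direction of a called gene reversed under any alternative. The number of the 10 genes called moved with single samples: from 1 to 2 in SH SNA against SH Sham (2 without SH SNA replicate 2), from 1 to 4 in EE + SNA against SH Sham (1 without SH Sham replicate 3, 2 without SH Sham replicate 1), and from 1 to 3 for the SNA effect over both housings (1 without any of SH Sham replicate 1, SH SNA replicate 3, EE Sham replicate 1 or 3 and EE + SNA replicate 3), where each such fit had 1 sample fewer. With no filter, 2 of the 10 were called in EE + SNA against EE Sham (Ccr2 added, adjusted P = 0.0478) and 2 for the EE effect over both surgeries (Ccr2, adjusted P = 0.0256, and Cxcl12, adjusted P = 0.000109), the cause of which was not tested. Without EE + SNA replicate 3, an alternative chosen after seeing the data, the genes called in EE + SNA against SH Sham fell to 2 of the other chemokine ligands, 0 of the receptors, 0 of the CSF1R lineage, 1 of the macrophage and 1 of the monocyte markers, and for the SNA effect to 0 of the other colony stimulating factors and receptors. No filter also moved the genes called among all genes from 785 to 1694 in EE + SNA against EE Sham and from 0 to 132 for the EE effect.

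With the replicate block, Csf1 rose by 1.24 in SH SNA (adjusted P = 0.000128), and the block changed the call of none of the 10 genes in any comparison. In EE Sham against SH Sham it moved the count among all genes from 1 to 29. The lowest depth limits Ccl7, at 11 counts.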
